A study of Danio rerio with 18 samples.

Results

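The genes described here code for plasma proteins that the liver secretes: apolipoproteins, complement factors, fibrinogen chains and other clotting factors, and the inhibitors and carriers that circulate with them. They were chosen by the opening letters of their gene symbols, as 48 genes on 64 probes out of 9264 different gene symbols on the array, with the probe of the highest mean intensity standing for each gene. By role these were 9 apolipoproteins, 15 complement genes, 10 genes of fibrinogen, coagulation and fibrinolysis, and 14 inhibitors, carriers and other plasma proteins. A further 8 genes that matched by letters alone, such as tfap2a and fggy, were left out. The study asked how early-life exposure to bisphenol A (BPA), a monomer of plastics with estrogenic activity, changes the transcripts of whole wild-type zebrafish larvae. Embryos were kept from 3 h after fertilization for 7 days in egg water with 500, 1500 or 4500 µg/L BPA and 0.05% ethanol, or with 0.05% ethanol alone (control). RNA of pooled whole larvae was labelled with Cy5 and hybridized against 1 common Cy3-labelled RNA, pooled from adult males and females at 9 parts to 1. Scans with the same Cy5 values at nearly all spots were averaged as 1 array, although their labels number them as separate replicates. The 500 µg/L group then had 5 arrays, the 1500 µg/L group 3 and the 4500 µg/L group 4, set against 4 control arrays.

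Hepatocytes are the main source of these proteins. Apolipoproteins carry lipids between tissues in lipoprotein particles, and in larvae the intestine and the yolk cell make them as well. Complement is a cascade of plasma proteases that converges on C3 and ends in a pore in the target membrane that includes C6 to C9. In clotting another cascade ends in thrombin, which turns fibrinogen into fibrin. In RNA of whole larvae, fewer liver cells and less RNA per liver cell cannot be told apart.

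Each value below is a log2 ratio of larvae over the adult reference, and a log2 fold change is the mean of a BPA group minus that of the control group, given with the standard error (SE) of the fit. No dyes were swapped, so a dye effect of a probe is part of its ratio but is shared by all arrays. The authors kept a ratio for 5127 to 19980 of the 23232 spots of a scan. Therefore 2 fits were made with limma, 1 on kept ratios alone (3878 probes with at least 3 values per group, 12 of the 48 genes) and 1 on every spot (22980 probes, all 48 genes). Only 6 of the genes had a kept ratio on every array, and itih3b.2 had none. The median Cy3 background was under 150 scanner units on 4 arrays, BPA_1500 replicates 1 and 3 and BPA_4500 replicates 2 and 3 (92 to 129 units), and between 162 and 247 units on all others, so that it goes in part with BPA concentration.

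Against the adult reference, the plasma protein genes lay close to 0 as a group on the brightest probe of each. Their median log2 ratio was -0.10 in control larvae and, in order of concentration, -0.05, -0.12 and -0.11 in larvae kept in BPA, and the median over all probes was between 0.004 and 0.02 in every group. At 4500 µg/L 31 of the 48 genes were below 0 and in control larvae 30 were, against 49.5% and 48.1% of all probes. The lower concentrations had 25 genes (500 µg/L) and 33 genes (1500 µg/L) below 0, against 48.4% and 48.1%. The lowest mean was that of c3b.2, at -2.64 ± 0.57 in control larvae (SD, n = 4), and the same gene was lowest in each BPA group. For some genes the level depended on the probe. Means in control larvae were -0.22, -0.26 and -2.17 for fga, and -0.12 and -1.64 for hpxa. They were 0.29 and -1.52 for cfhl2 and -0.09 and -1.19 for apoc2, but -0.06 and -0.0003 for c3a.2. The authors had kept the ratios of 15 of the 48 genes on 7 arrays or fewer.

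At 4500 µg/L BPA, 3 of the 48 genes passed an adjusted p of 0.05 against the control group when every spot was kept. c3b.2, a copy of the central complement protein C3, and itih3a.1, a heavy chain of the inter-alpha-trypsin inhibitor that binds hyaluronan, were higher, and apol1, an apolipoprotein L gene, was lower. That is 2 genes higher, or 4.17%, where 2.78% of all 22980 probes were higher, and 1 lower, or 2.08%, where it was 0.296% of all probes. All 3 calls ended without background correction, where apol1 was at -0.54, c3b.2 at 0.63 and itih3a.1 at 0.67 (adjusted p of 0.086 to 0.11), and they also ended with a correction for spot position (-0.71, 1.08 and 1.13) and by the methods' t-test. On kept ratios none of the 12 genes passed in either direction, where 0.0258% of all probes were higher and 0% lower. There 1 gene was higher and 2 were lower at an unadjusted p under 0.05, against 6.4% and 14.1% of all probes. With every spot, 5 genes were higher and 5 lower at an unadjusted p under 0.05 (10.4% each), against 14.6% and 7.24% of all probes. The median fold change of the genes was -0.10 with every spot and -0.29 on kept ratios, against 0.02 and -0.17 over all probes.

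**Figure D1:**
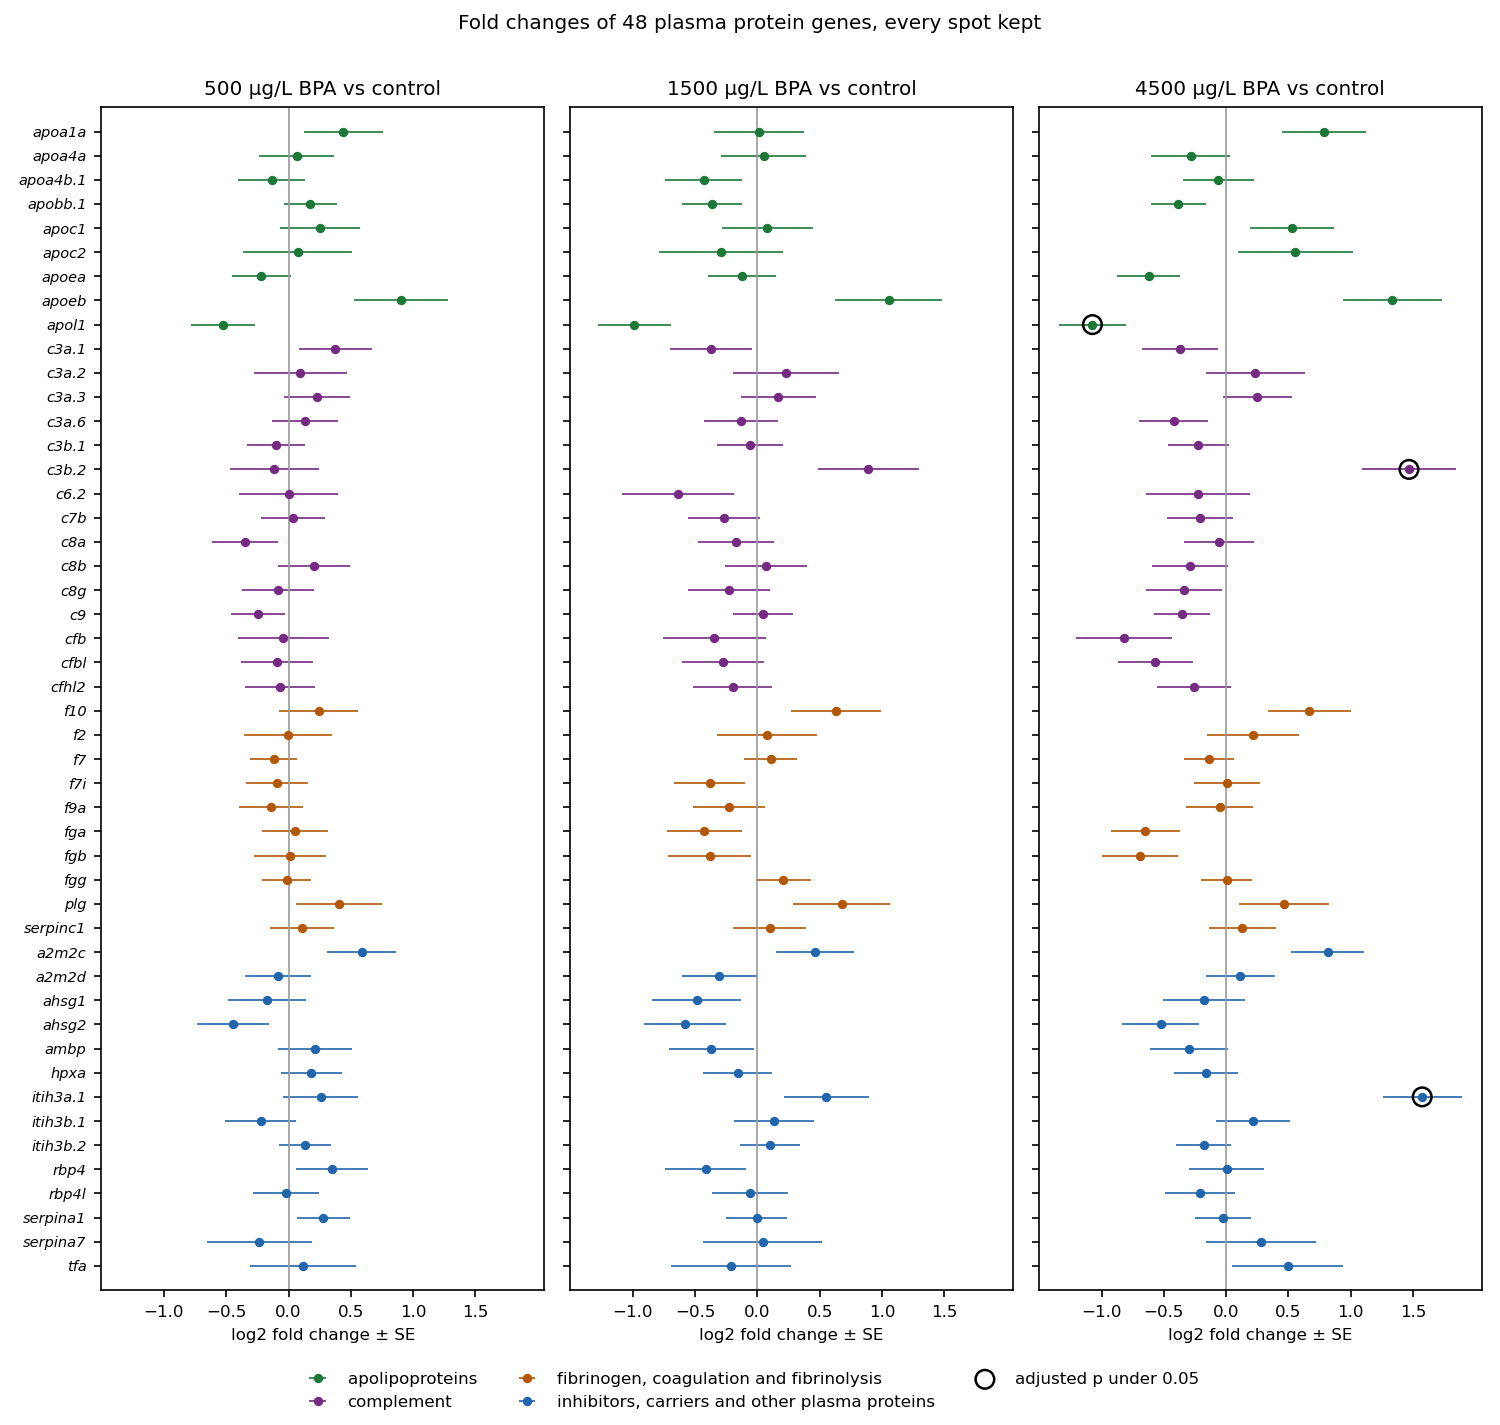
Log2 fold change against the control group for the 48 genes (rows, coloured by role) at 500, 1500 and 4500 µg/L BPA, with every spot kept. Points are limma estimates, bars are SEs and black rings mark an adjusted p under 0.05, which apol1, c3b.2 and itih3a.1 reach at 4500 µg/L and no gene at the lower concentrations.

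Among the 9 apolipoproteins, 4 had a fold change above 0 and 5 below 0 at 4500 µg/L, and apol1 alone passed the test. In humans apol1 is part of high-density lipoprotein and lyses trypanosomes. Its log2 ratios were -0.58, -0.78, -0.36 and -0.31 at 4500 µg/L, against 0.53, 0.57, -0.04 and 1.19 in control larvae, and the groups did not overlap. Across all genes, 3 of 48 did not overlap with lower values at 4500 µg/L (apol1, apoea and cfb, 6.25%, against 2.86% of all probes) and 1 with higher values (itih3a.1, 2.08%, against 5.59%). apol1 had a fold change of -1.07 (SE 0.27, limma adjusted p = 0.038). Its values were 0.10, -0.20, -0.24, 0.54 and -0.01 at 500 µg/L, and -0.89, -0.02 and -0.37 at 1500 µg/L. Every value at 1500 and 4500 µg/L was below 0, while 3 of the 4 control values were above 0, and the values at 500 µg/L overlapped those at 1500 µg/L and of the control arrays but lay above all at 4500 µg/L. Leaving out any 1 control array, BPA_500 replicate 5 or BPA_4500 replicate 1, 2 or 3 left apol1 short of the threshold, with fold changes of -1.27 to -0.86 and adjusted p of up to 0.12. The authors had kept 9 of its 16 ratios, 2 of the 4 at 4500 µg/L and 2 of the 4 in control larvae. Cy5 foreground was 1.16 to 3.16 times its background at 4500 µg/L and 2.14 to 3.58 times in control larvae. With the low Cy3 background as a block the fold change was -0.91 (adjusted p = 0.21), and without those arrays it was -1.01 (adjusted p = 0.26).

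apoeb, one of the zebrafish genes of apolipoprotein E, the ligand by which lipoprotein receptors take up particles, had the highest fold change of the apolipoproteins. Its log2 ratios were 0.70, 0.24, 0.29 and -0.84 at 4500 µg/L, against -0.67, -1.84, -1.23 and -1.20 in control larvae. Replicate 4 at 4500 µg/L lay within the range of the control arrays and the other replicates lay above it. The fold change was 1.33 (SE 0.40, limma adjusted p = 0.069), short of the threshold, which it passed without BPA_4500 replicate 4 (1.65, adjusted p = 0.013) and without BPA_500 replicate 2 (adjusted p = 0.048). At 500 µg/L the values were 0.28, -1.39, 0.06, -0.59 and -0.04, and at 1500 µg/L -0.89, -0.24 and 0.59, so that 9 of the 12 arrays with BPA were above the highest control array. The study had picked apoeb on the same arrays for PCR, so its direction here is no independent evidence. By PCR on new batches of larvae the paper reports apoeb as up-regulated, and it proposes the gene as a biomarker of BPA exposure.

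apoa1a, the main protein of high-density lipoprotein, could be tested on kept ratios and was the gene there with the smallest p at 4500 µg/L. It had -0.69, -0.04, 0.47 and -0.51 at 4500 µg/L, against -1.55, -1.05, -1.31 and 0.01 in control larvae, where replicate 4 stood above the others and inside the range at 4500 µg/L. The fold change was 0.78 (SE 0.33, unadjusted p = 0.027, limma adjusted p = 0.20) on kept ratios, and with every spot but without control replicate 4 it was 1.113 (adjusted p = 0.045). Values were -0.60, -0.67, -0.17, -0.23 and -1.01 at 500 µg/L, and -0.47, -0.98 and -1.44 at 1500 µg/L, both within the range of the control arrays. apobb.1, an apolipoprotein B gene that forms the frame of the larger particles, had -1.20, -1.18, -0.96 and -0.55 at 4500 µg/L, against -0.57, -0.74, -0.48 and -0.57 in control larvae. There 3 arrays at 4500 µg/L lay below all control arrays, and the fold change of -0.38 (SE 0.22, adjusted p = 0.33) did not pass. Its values at 500 µg/L were -0.38, -0.48, -0.37, -0.48 and -0.36, and at 1500 µg/L they were -1.01, -0.45 and -1.41, with the 2 low ones at 1500 µg/L on the arrays of low Cy3 background. These are values of its brightest probe. Further apobb.1 probes were at 0.79 (SE 0.29, limma adjusted p = 0.12) and -0.02 (SE 0.29) at 4500 µg/L. Of the other apolipoproteins, apoc1 was at 0.53, apoc2, the cofactor of lipoprotein lipase, at 0.56, apoea at -0.62 (unadjusted p = 0.024), apoa4a at -0.28 and apoa4b.1 at -0.06.

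**Figure D2:**
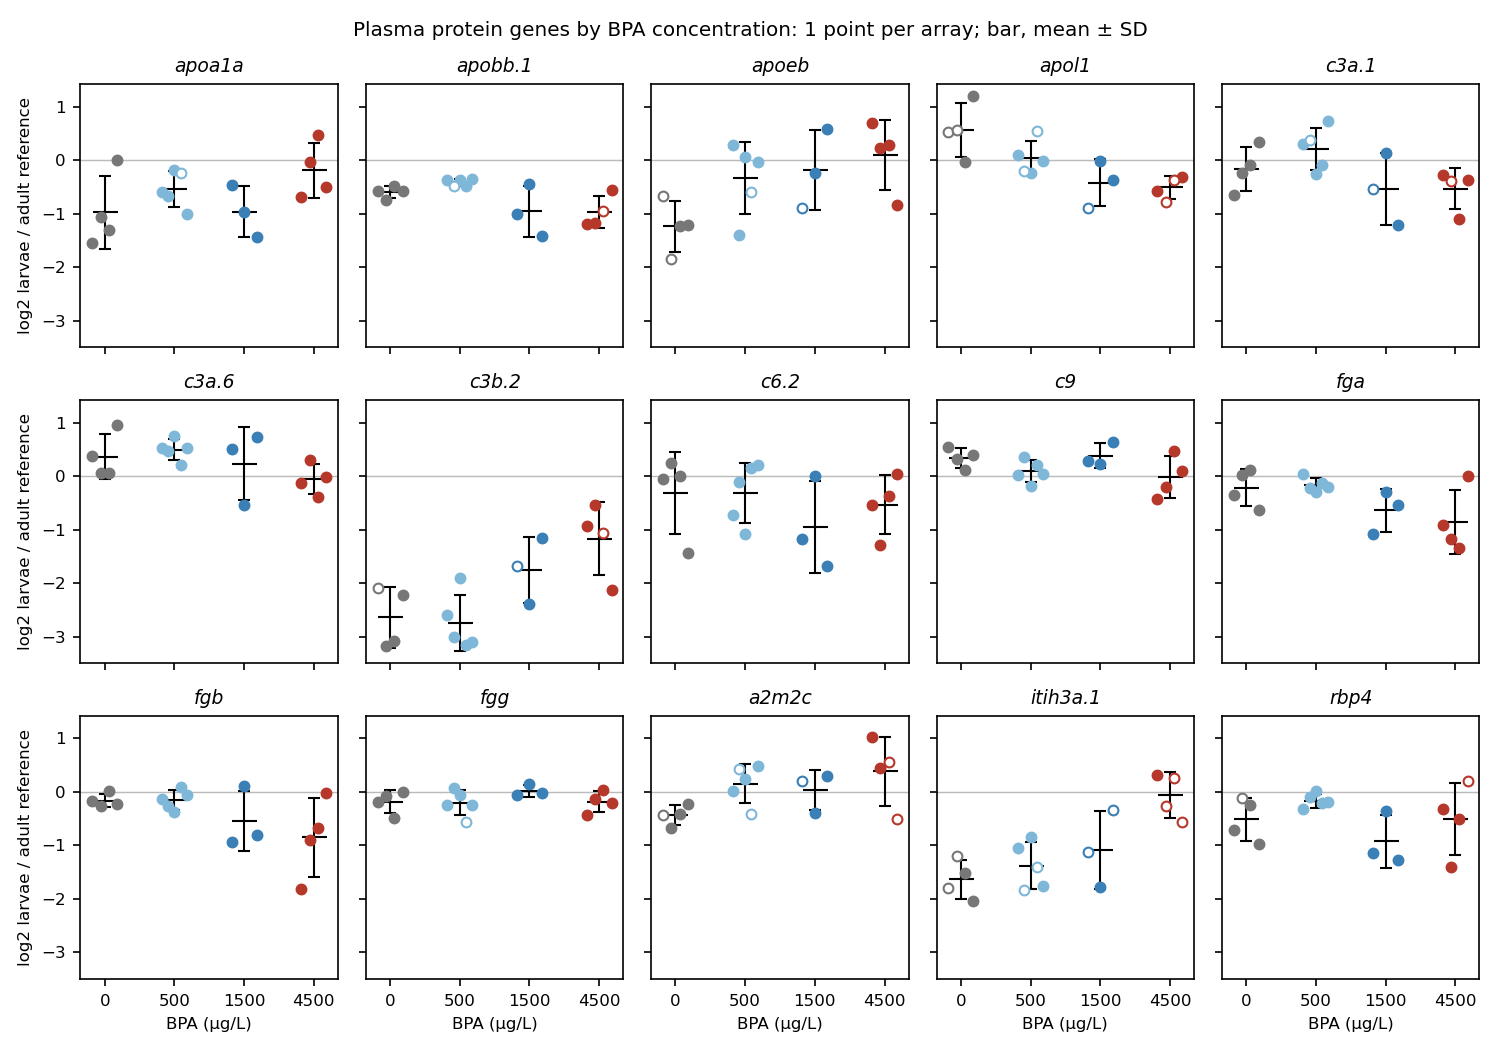
Log2 ratio of larvae over the adult reference (vertical) by BPA concentration (0 is the vehicle control) for 15 genes, 1 point per array, with open points where the authors had not kept the ratio and bars for the mean ± SD. apol1 and itih3a.1 have no overlap between 4500 µg/L and control, while fgg lies between -0.56 and 0.15 on all 16 arrays.

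Of the 15 complement genes, 12 had a fold change below 0 on their brightest probe at 4500 µg/L and 3 above 0. Their median was -0.26, against 0.02 over all probes, and the one that passed the test was higher. The further probes of c3a.1 (0.64 and 0.87), cfhl2 (1.25) and c9 (0.34) lay above 0, unlike the brightest ones of these genes. The further c3a.2 probe, at 0.24, had the sign of the brightest one. c3b.2 had -0.94, -0.55, -1.07 and -2.13 at 4500 µg/L, against -2.09, -3.17, -3.08 and -2.22 in control larvae. All arrays of both groups were below the adult reference, and replicate 4 at 4500 µg/L fell inside the control range by a small margin. The fold change was 1.47 (SE 0.37, limma adjusted p = 0.040). It missed the threshold without control replicate 1, 2 or 3, BPA_1500 replicate 1 or BPA_4500 replicate 1, 2 or 3 (1.26 to 1.65, adjusted p of up to 0.14). In larvae at 500 µg/L c3b.2 had -2.59, -3.01, -1.91, -3.16 and -3.10, and at 1500 µg/L -1.68, -2.40 and -1.17, so that it was near the control level at the lowest concentration. The authors had kept 13 of its 16 ratios, 3 of the 4 at 4500 µg/L and 3 of the 4 in control larvae. Its Cy5 signal was 1.38 to 1.73 times the background at 4500 µg/L and 1.19 to 2.68 times in control larvae, while the Cy3 signal of the adult reference was at 3.94 to 4.53 times on the 4500 µg/L arrays and 2.93 to 7.13 times on the control arrays. With the low Cy3 background as a block the fold change of c3b.2 was 1.05 (adjusted p = 0.25), and without those arrays 1.102 (adjusted p = 0.32). The copy beside it in the RefSeq annotation (GRCz12tu), c3b.1, was at -0.22 (SE 0.24).

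The brightest complement probe was that of c3a.6, another C3 copy. It had -0.12, 0.29, -0.39 and -0.01 at 4500 µg/L, against 0.37, 0.06, 0.06 and 0.95 in control larvae, a fold change of -0.42 (SE 0.28) on overlapping ranges. At 500 µg/L it had 0.53, 0.46, 0.74, 0.20 and 0.53, and at 1500 µg/L 0.50, -0.54 and 0.73. c3a.1 had -0.27, -0.39, -1.10 and -0.37 at 4500 µg/L, against -0.66, -0.25, -0.09 and 0.34 in control larvae, a fold change of -0.37 (SE 0.31), with replicate 3 apart from the rest of its group. Its values were 0.31, 0.38, -0.25, -0.10 and 0.73 at 500 µg/L and -0.54, 0.14 and -1.21 at 1500 µg/L. The C3 genes c3a.2 and c3a.3 were at 0.24 and 0.25. The copies are closely related, and how far a probe tells them apart was not tested.

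Factor B, the protease of the alternative complement pathway, has the genes cfb and cfbl on the array, and neither passed. The first, cfb, had -0.45, -0.39, -1.09 and -0.30 at 4500 µg/L, against 0.01, -0.07, 0.43 and 0.69 in control larvae, with no overlap and a fold change of -0.82 (SE 0.38, unadjusted p = 0.046, limma adjusted p = 0.22). cfbl was at -0.57 (SE 0.30, adjusted p = 0.29), and cfhl2, a factor H-like gene, at -0.26. Of the pore proteins, c9 had -0.44, -0.20, 0.46 and 0.10 at 4500 µg/L, against 0.54, 0.32, 0.10 and 0.38 in control larvae, a fold change of -0.35 (SE 0.22). In larvae at 500 µg/L c9 had 0.02, 0.36, -0.18, 0.21 and 0.04, and at 1500 µg/L 0.28, 0.22 and 0.64, and no BPA group stood clear of the control arrays. Its fold change at 500 µg/L was -0.25, but -0.71 where the loess curve was fitted to kept spots alone, and it passed in neither. c6.2 had -0.54, -1.28, -0.37 and 0.04 at 4500 µg/L, against -0.05, 0.25, -0.01 and -1.45 in control larvae. Its ranges overlapped, with control replicate 4 the lowest array of both groups, and the fold change was -0.23 (SE 0.42). c6.2 had -0.73, -0.11, -1.07, 0.15 and 0.20 at 500 µg/L and -1.18, -0.001 and -1.68 at 1500 µg/L, where the 2 low arrays were again those of low Cy3 background. The remaining pore genes c7b, c8a, c8b and c8g lay between -0.34 and -0.06.

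Fibrinogen is built of alpha, beta and gamma chains, and on the brightest probe of each gene the fold changes of fga and fgb lay below 0 at 4500 µg/L and that of fgg at 0. Another fga probe was higher, at 1.80 (SE 0.40, limma adjusted p = 0.026), and is described with the probes of 1 gene. On its brightest probe fga, the alpha chain, had -0.91, -1.19, -1.35 and -0.005 at 4500 µg/L, against -0.36, 0.01, 0.11 and -0.63 in control larvae. fgb, the beta chain, had -1.82, -0.91, -0.67 and -0.01 at 4500 µg/L, against -0.16, -0.27, 0.01 and -0.23 in control larvae. For both, replicates 1 to 3 at 4500 µg/L lay below every control array and replicate 4 lay within their range. The fold changes were -0.65 (SE 0.28, unadjusted p = 0.029) for fga and -0.69 (SE 0.30, unadjusted p = 0.032) for fgb on kept ratios by limma, with adjusted p of 0.20 and 0.21. fgg, the gamma chain, had -0.44, -0.13, 0.03 and -0.20 at 4500 µg/L, against -0.18, -0.08, -0.49 and 0.00 in control larvae, a fold change of 0.00 (SE 0.22) on overlapping ranges. Both fga and fgb were kept on all 16 arrays, with Cy5 signals at medians of 5.87 and 5.47 times the background.

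At the lower concentrations fga had 0.03, -0.23, -0.30, -0.12 and -0.20 at 500 µg/L, and -1.08, -0.30 and -0.54 at 1500 µg/L. fgb had -0.14, -0.26, -0.38, 0.09 and -0.07 at 500 µg/L, and -0.94, 0.10 and -0.80 at 1500 µg/L. The values at 500 µg/L overlapped those of the control arrays, and the low values at 1500 µg/L were those of replicates 1 and 3, the arrays of low Cy3 background. fgg had -0.24, 0.08, -0.07, -0.56 and -0.24 at 500 µg/L and -0.06, 0.15 and -0.03 at 1500 µg/L. Without BPA_4500 replicate 4, fga was at -0.93 (adjusted p = 0.023) and fgb at -0.97 (adjusted p = 0.033), and both passed the threshold. Without the arrays of low Cy3 background fga was at -0.24 (adjusted p = 0.71) and fgb at -0.75 (adjusted p = 0.37). The part of that background, or of 1 array, in these values was not tested further.

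No protease of the clotting cascade passed the test. f2, prothrombin, was at 0.22 (SE 0.37), f7 at -0.14, f9a at -0.05 and f7i, a relative of f7, at 0.01. f10 was at 0.67 (SE 0.33, unadjusted p = 0.061) and plg, plasminogen, which dissolves clots, at 0.46 (SE 0.36). serpinc1, antithrombin, was at 0.13. None of these passed an unadjusted p of 0.05.

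Among the 14 inhibitors, carriers and other plasma proteins, 7 were above 0 and 7 below 0 at 4500 µg/L. itih3a.1 had 0.32, -0.26, 0.26 and -0.57 at 4500 µg/L, against -1.79, -1.20, -1.52 and -2.04 in control larvae. The groups did not overlap, and the fold change was 1.57 (SE 0.32, limma adjusted p = 0.020). Without control replicate 1 or 3 or BPA_4500 replicate 1, 2 or 3 it missed the threshold (1.45 to 1.64, adjusted p of up to 0.076). At 500 µg/L it had -1.05, -1.84, -0.84, -1.40 and -1.76, and at 1500 µg/L -1.12, -1.79 and -0.34. Its values at 500 and 1500 µg/L reached from within the control range to above it. The authors had kept 7 of its 16 ratios and 1 of the 4 at 4500 µg/L, where Cy5 was 1.07 to 2.38 times its background, against 1.51 to 2.22 times in control larvae. With the low Cy3 background as a block the fold change of itih3a.1 was 1.33 (adjusted p = 0.15), and without those arrays 1.51 (adjusted p = 0.17). The related genes itih3b.1 and itih3b.2 were at 0.21 and -0.18.

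a2m2c, an alpha-2-macroglobulin gene whose protein traps proteases, had 1.02, 0.45, 0.56 and -0.51 at 4500 µg/L, against -0.43, -0.67, -0.41 and -0.23 in control larvae. Replicate 4 was again inside the control range, and the fold change was 0.82 (SE 0.29, unadjusted p = 0.012, limma adjusted p = 0.12). Without that replicate it was 1.11 (adjusted p = 0.013). At 500 µg/L a2m2c had 0.02, 0.43, 0.23, -0.42 and 0.49 and at 1500 µg/L 0.20, -0.40 and 0.29. Its neighbour a2m2d was at 0.11. rbp4, the carrier of retinol, had -0.33, -1.41, -0.51 and 0.21 at 4500 µg/L, against -0.72, -0.11, -0.25 and -0.97 in control larvae, a fold change of 0.00 (SE 0.30). It had -0.33, -0.10, 0.02, -0.22 and -0.19 at 500 µg/L and -1.14, -0.37 and -1.28 at 1500 µg/L, and on kept ratios its fold change of 0.48 (SE 0.29) at 500 µg/L had the smallest p of the 12 genes there without passing. Transferrin (tfa), which carries iron, was at 0.49 (SE 0.44), serpina7, which binds thyroxine in mammals, at 0.28 (0.44) and hpxa, hemopexin, which binds heme, at -0.16. serpina1, the antitrypsin gene, was at -0.03, ambp at -0.30, and the fetuin genes ahsg1 and ahsg2 at -0.18 and -0.53.

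Both genes that rose at 4500 µg/L, c3b.2 and itih3a.1, lay far below the adult reference on the 500 µg/L arrays, which take no part in that difference. Over the 64 probes of the 48 genes, the mean log2 ratio at 500 µg/L and the fold change at 4500 µg/L correlated at r = -0.65, and over all 22980 probes at r = -0.55. These are correlations across probes, which share arrays and the adult reference and are not independent. Of the 64 probes, 5 had a mean below -1 at 500 µg/L, those of c3b.2 and itih3a.1 and further probes of fga, cfhl2 and apoc2, and all 5 had a fold change above 0. So had 1290 of the 1301 such probes on the whole array, or 99.2%, with a median of 1.202. Where the mean at 500 µg/L lay between -3 and -2.5, as for c3b.2, the median fold change over all probes was 1.37, and between -1.5 and -1, as for itih3a.1, it was 1.08 with a 95th percentile of 1.67. The values of c3b.2 (1.47) and itih3a.1 (1.57) lie within those ranges. Some of the 64 probes lay outside the 5th to 95th percentiles of their level, as a share of all probes does by construction. Above the 95th percentile were apoeb (1.33, against 0.895), a2m2c (0.82, against 0.60) and a further hpxa probe (1.49, against 1.43). Below the 5th percentile were apol1 (-1.07) and cfb (-0.82), both against -0.69, and fgb (-0.69, against -0.66). Low ratios were less extreme on the arrays of the higher concentrations: the 1st percentile over all probes was -1.998 to -1.50 at 4500 µg/L, against -2.70 to -2.40 in control larvae, and it was -2.69 to -1.77 at 500 µg/L and -1.98 to -1.47 at 1500 µg/L. The part of this compression in the 2 higher calls was not tested.

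**Figure D3:**
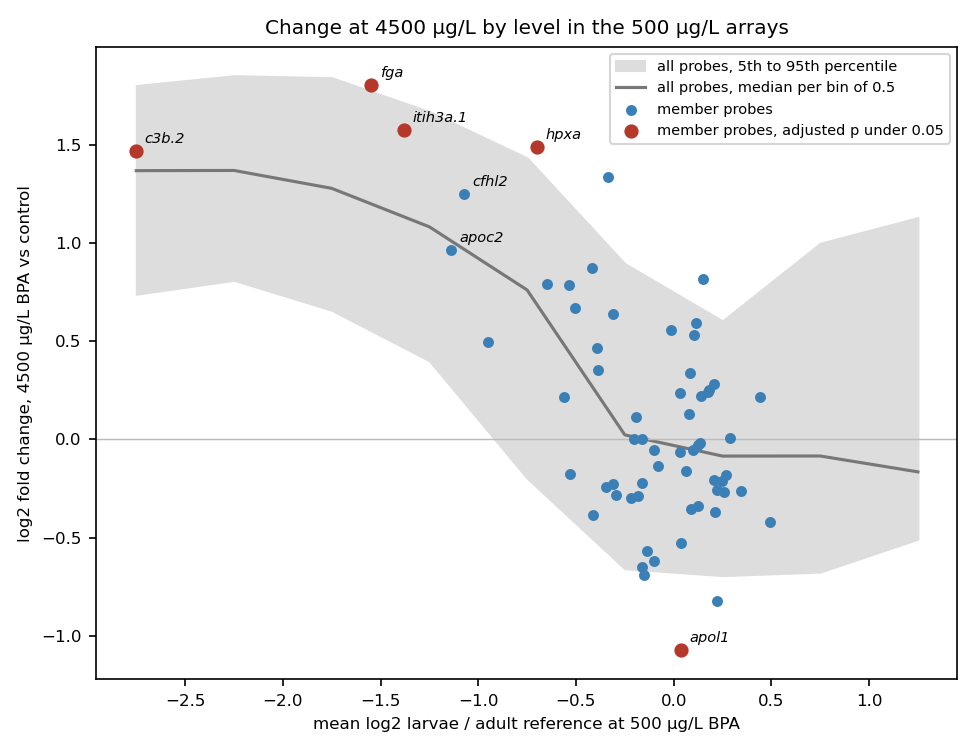
Log2 fold change at 4500 µg/L against the control group (vertical) by the mean log2 ratio on the 500 µg/L arrays (horizontal) for the 64 probes, over the median and the 5th to 95th percentiles of all probes in bins of 0.5. The probes with low ratios at 500 µg/L lie high at 4500 µg/L, as do 99.2% of all probes below -1, and the labels fga, hpxa, cfhl2 and apoc2 stand for further probes of those genes.

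Probes of 1 gene often disagreed. Of the 13 genes with more than 1 probe, 3 (apoc2, c3a.2 and rbp4) had the same sign on all their probes at 4500 µg/L and 10 did not. The brightest fga probe was at -0.65, another at -0.24 and the one left at 1.80 (SE 0.40, limma adjusted p = 0.026), on a Cy5 signal with a median of 1.52 times its background. This last fga probe had -0.14, 0.10, 0.11 and -1.55 at 4500 µg/L, against -2.63, -1.96, -2.35 and -1.75 in control larvae. A further hpxa probe was at 1.49 (SE 0.28, adjusted p = 0.016, Cy5 at a median of 1.63 times background), where the brighter one was at -0.16. The further cfhl2 probe was at 1.25 and the brighter at -0.26, and the c3a.1 probes were at -0.37, 0.64 and 0.87. The apobb.1 probes were at -0.38, -0.02 and 0.79, and those of c9 at -0.35 and 0.34. A sign at 4500 µg/L therefore rests on the choice of probe for most genes that could be checked. Some of these signs belong to changes within 1 SE of 0. Examples are probes of serpina1 at -0.03 (SE 0.23), apobb.1 at -0.02 (SE 0.29) and a2m2d at 0.11 (SE 0.28) and -0.26 (SE 0.30). How often probes of 1 gene differ in sign over the whole array was not counted.

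**Figure D4:**
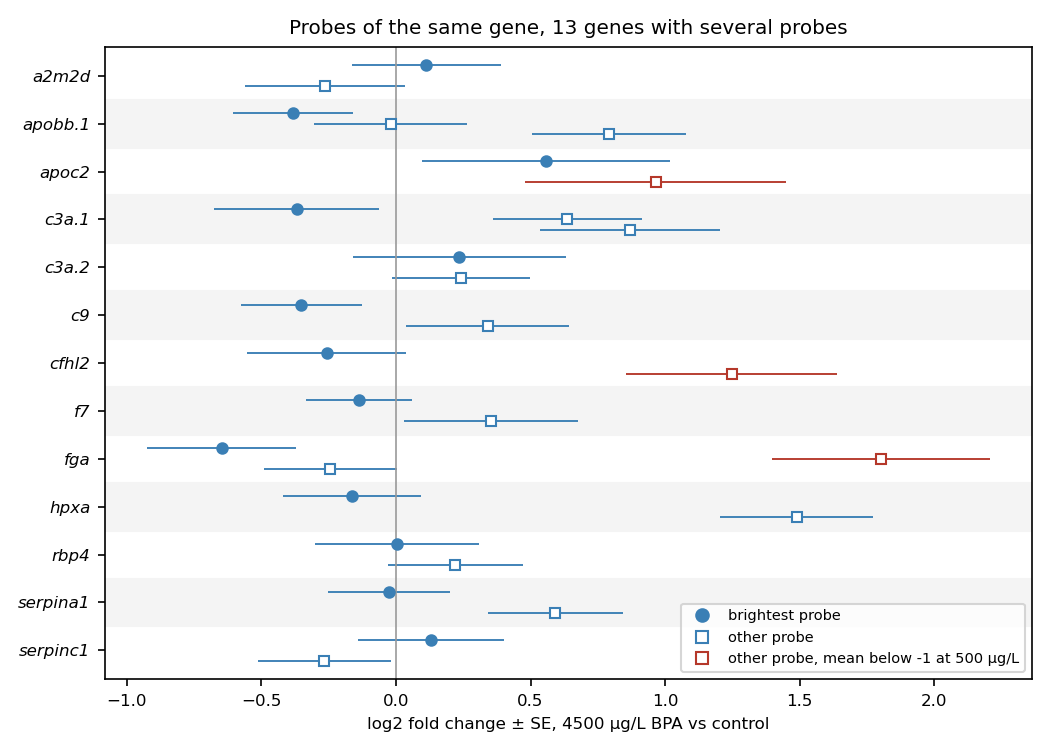
Log2 fold change at 4500 µg/L against the control group (horizontal, bars are SEs) for each probe of the 13 genes with more than 1, with filled circles for the brightest probe and squares for the others, red where the mean at 500 µg/L was below -1. The probes of fga reach from -0.65 to 1.80 and those of hpxa from -0.16 to 1.49.

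Some of the genes lie next to each other in the RefSeq annotation (GRCz12tu, used for names and order only). apoeb and apoc1 are neighbours, with fold changes of 1.33 and 0.53 at 4500 µg/L, and apoc2 (0.56) follows after 2 protein-coding genes. apoa4a and apoea, at -0.28 and -0.62, are a second such pair, and cfb and cfbl, at -0.82 and -0.57, have 1 gene between them, as have fgb and fga at -0.69 and -0.65. In c3b.2 and c3b.1 and in f7, f7i and f10 the neighbours lay apart, at 1.47 and -0.22 and at -0.14, 0.01 and 0.67. So did a2m2c and a2m2d (0.82 and 0.11) and itih3b.1 and itih3b.2 (0.21 and -0.18). Closer were c3a.6 and c3a.1 (-0.42 and -0.37), c3a.2 and c3a.3 (0.24 and 0.25) and c7b and c6.2 (-0.21 and -0.23). The pair c8a and c8b was at -0.06 and -0.29. All are values of the brightest probes. Further probes were at -0.24 and 1.80 for fga and at 0.64 and 0.87 for c3a.1, the latter unlike c3a.6 in sign. Those of apoc2, c3a.2, f7 and a2m2d were at 0.96, 0.24, 0.35 and -0.26.

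At 500 µg/L no gene passed, on 12 genes or on 48, where 0% of all probes did in either direction by limma. At an unadjusted p under 0.05, 2 of 48 genes were higher (apoeb at 0.90 and a2m2c at 0.59) and 0 lower, against 2.17% and 1.55% of all probes, and none of 12 on kept ratios, against 0.903% and 0.567%. At 1500 µg/L no gene passed either, where 0.0131% of all probes were higher and 0% lower with every spot and 0% on kept ratios. At an unadjusted p under 0.05, 2 were higher (apoeb at 1.06 and c3b.2 at 0.89) and 1 lower (apol1 at -0.99) of 48, against 8.13% and 3.06% of all probes, and none of 12, against 3.51% and 3.69%. Some further probes were higher at that unadjusted p, and none passed the adjusted threshold. A further hpxa probe was at 0.94 (500 µg/L) and 1.00 (1500 µg/L), where the brightest was at 0.18 and -0.16. At 1500 µg/L further probes of c3a.1, fga and apoc2 were at 0.81, 1.09 and 1.43, where the brightest were at -0.37, -0.42 and -0.29. The last fga probe was at -0.25. That c3a.1 probe, not among the 12, was at 0.73 on kept ratios. The groups did not overlap for 0 genes in either direction at 500 µg/L, against 0.866% of all probes higher and 0.796% lower, and for 0 at 1500 µg/L, against 6.35% and 3.64%. All of these comparisons share their control arrays.

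Between the concentrations no gene passed the adjusted threshold in either fit, and of all probes only 0.0783% were higher and 0.00435% lower, at 4500 against 500 µg/L with every spot. At an unadjusted p under 0.05 by limma, 4500 against 500 µg/L gave 2 of 48 genes higher (c3b.2 at 1.58 and itih3a.1 at 1.32, limma adjusted p = 0.075 for each) and 6 lower (apobb.1, apol1, c3a.1, cfb, fga and fgb, at -0.78 to -0.55), against 10.5% and 7.23% of all probes. Further probes differed in this comparison, with apobb.1 at 0.87 and -0.37, fga at 1.18 and -0.16, and c3a.1 at 0.40 and 0.41. On kept ratios 4 of 12 were lower there (apobb.1, c3a.6, fga and fgb, at -0.70 to -0.55) and 0 higher, against 16.6% and 4.33%. A further c3a.1 probe, not among the 12, was at 0.56 on kept ratios. The same arrays did not overlap for 4 genes lower (apobb.1, apol1, c3a.1 and cfb, against 2.18% of all probes) and 1 higher (itih3a.1, against 3.13%). The comparison of 1500 with 500 µg/L gave c3b.2 higher at 1.01 and apobb.1, c3a.1 and rbp4 lower at -0.54, -0.75 and -0.76 of 48, against 4.87% and 2.78%, and apobb.1 and rbp4 lower of 12, against 5.52%, with 0 higher, against 2.37%. A further c3a.1 probe of nearly the same mean log2 intensity (8.547, against 8.564) was at 0.57, and at 0.73 on kept ratios. The last c3a.1 probe was at 0.13, and further probes of apobb.1 were at -0.17 and 0.54 and of rbp4 at -0.07. There fga and rbp4 did not overlap, with lower values, against 2.41% of all probes, and no gene with higher values, against 3.65%. For 4500 against 1500 µg/L, apoa1a at 0.77 and itih3a.1 at 1.02 were higher of 48 and 0 lower, against 1.84% and 2.39%, and apoa1a was higher of 12 and 0 lower, against 0.877% and 2.97%. apoea did not overlap there, with lower values, against 2.19% of all probes, and no gene with higher values, against 1.89%.

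Further genes of these systems, and marker genes of other cell types, were read in the fit with every spot at 4500 µg/L, where the median over all probes was 0.02. Of 23 further plasma proteins and enzymes of the liver, 2 were higher and 1 was lower, against 2.78% and 0.296% of all probes. Higher were vtna, the adhesion protein vitronectin, at 1.00 (SE 0.26, limma adjusted p = 0.043) and serping1, the inhibitor of C1, at 1.45 (0.38, adjusted p = 0.047). Lower was shbg, a steroid carrier, at -1.46 (0.31, adjusted p = 0.023). The authors had kept the ratio on 12 arrays for vtna, 8 for serping1 and 10 for shbg. The alternatives of processing that ended the 3 calls among the 48 genes were not read for these lists. Whether the calls of vtna, serping1 and shbg outlast them was therefore not tested. fabp10a, the fatty acid binding protein of hepatocytes, was at 0.16 (SE 0.38). The median of the 23 was 0.07. serping1 was also the gene that passed among 10 further complement genes (median 0.23). None passed of 11 genes of lipoprotein assembly and uptake (pltp at -0.83 and cetp at 0.78), 14 liver transcription factors (foxa1 at -0.69 and nr1h4 at 0.79) or 7 acute-phase genes (saa at -0.45 and il1b at 0.67). Nor did any of 8 enterocyte genes (apoa4a, itself one of the 48, among them, median -0.31, with vil1, of the brush border, at -0.92, adjusted p = 0.054, and the peptide transporter slc15a1b at -0.77), 9 macrophage genes (lcp1 at 0.67 and coro1a at -0.86) or 8 yolk cell genes. Of the 8 enterocyte genes, 1 was higher and 2 were lower at an unadjusted p under 0.05 by limma, against 14.6% and 7.24% of all probes. Among the yolk cell genes apoea, also one of the 48, and ctsba, a lysosomal protease, had the smallest p, at -0.62 and 0.87. Each list holds genes that other tissues also express. On kept ratios few genes could be tested, and none passed. They were 3 of the 23 liver genes, 2 of 11 lipoprotein, 2 of 10 complement, 3 of 8 enterocyte and 1 of 9 macrophage genes. Of the transcription factors, acute-phase and yolk cell genes 0 were tested there, and vtna, serping1 and shbg were not tested either.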

How the data were processed

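Total RNA of whole larvae (Cy5) and of the adult reference (Cy3) was measured on 2-colour oligonucleotide arrays of 23232 spots. The authors deposited scanner intensity values of both channels, foreground mean and local background median, which were not normalized, and log2 ratios after Lowess normalization for the spots they had not flagged. In the file of control replicate 1, 16654 lines were shifted by 1 column and were realigned. Control replicates 4 and 5, and replicates 3 and 4 at 1500 µg/L, had the same Cy5 value at 99.83% and 99.98% of spots and were averaged as 1 array each. The labels number them as separate replicates, and the paper counts them as biological replicates.

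Intensities were background-corrected (normexp, offset 50) and loess-normalized within arrays in limma 3.58.1 (R 4.3.3). Spots without a kept ratio were then left out (at least 3 values per group), or every spot was kept. The loess curve was fitted to every spot, chosen after values of c9 under a curve fitted to kept spots alone had been seen, and that curve is an alternative. Spots of 1 accession were averaged. Group means were fitted over all 4 groups with 1 spread, and p-values were adjusted by Benjamini-Hochberg over all tested probes (threshold 0.05). The fit was tested on simulated data. Symbols were updated through RefSeq tables (GRCz12tu), 11724 spots having one. Array precision is limited by the number of arrays.

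The genes, the lists and the tests were chosen with earlier results of these data known. Values of every array are given for genes that passed, the 3 smallest p per BPA comparison with the control group and fit, c3a.1, fga, fgg, apoeb, apol1 and the brightest of each role, and cfb and the further probes were named after their values were seen. Replicate numbers did not pair the arrays (21 same-number pairs of deviations, median r = -0.03, against 0.01 for 74 others), so no block entered the main fits. Alternatives covered the background correction, offset, centring, array weights, repeated scans, kept spots, probes, position, the Cy3 background, Student's t-test with adjusted p-values and leaving out each array.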

Additional observations from a re-analysis of the deposited data

Results flagged for a closer look

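In c3a.1, a C3 gene, BPA_4500 replicate 3 stood apart from the other arrays of its group, at a log2 ratio of -1.10 where those lay between -0.39 and -0.27. It was the only such value among 45 groups of 4 or 5 arrays over 15 genes, and chance alone sets about 1 in 20 groups apart in this way. The authors had kept that ratio. The brightest c3a.1 probe is also the one at -0.37 of the 3 probes of the gene, the others being at 0.64 and 0.87.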

How the results depend on the processing

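On kept ratios, the count of genes that passed was 0 in every comparison. It was 3 at 4500 µg/L with every spot, 1 at 1500 and 1 at 4500 µg/L (cfb both times) with the 18 scans as separate arrays, and 1 at 1500 µg/L (c6.2), 2 at 4500 µg/L (apoa1a and fga), 3 for 1500 against 500 µg/L and 1 for 4500 against 500 µg/L with array quality weights. With 18 scans 20 genes were tested. cfb, kept on 2 arrays at 1500 µg/L, was among them only because a repeated scan counted as a separate value. Leaving out 1 array at a time gave 0 to 2 at 4500 µg/L against control and 0 to 2 against 500 µg/L, the 2 against control being fga and fgb without BPA_4500 replicate 4. The median fold change at 1500 µg/L was -0.28, and -0.0206 with the low Cy3 background as a block, where fga reversed to 0.0357. Without the arrays of low Cy3 background that median was 0.0523, and c6.2 and apobb.1 reversed to 0.31 and 0.14. The values without those arrays rest on BPA_1500 replicate 2 alone at 1500 µg/L, and the median there is over 16 genes in place of 12. At 4500 µg/L the median ranged from -0.35 to -0.0141 over the arrays left out. The loess curve fitted to kept spots alone moved none of these counts, but it took c9 at 500 µg/L to -0.71, against -0.25, and apobb.1 at 1500 µg/L to -0.57, against -0.37.

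With every spot, the 3 calls at 4500 µg/L became 0 without background correction, with the low Cy3 background as a block and without those arrays. The count was also 0 with a correction for position and by Student's t-test with adjusted p-values, and 5 with every probe of a gene. With the replicate number as a block it was 1, itih3a.1 at 1.57 (adjusted p = 0.031), and the block changed no call on kept ratios. Over the arrays left out the count ranged from 0 to 7, with 7 without BPA_4500 replicate 4 (a2m2c, apoeb, apol1, c3b.2, fga, fgb and itih3a.1) and 0 without BPA_4500 replicate 1, 2 or 3 or control replicate 1 or 3. Over all alternatives of this fit apol1 stayed between -1.38 and -0.54, c3b.2 between 0.63 and 1.87 and itih3a.1 between 0.67 and 1.74. For 1500 µg/L the 18 scans as separate arrays gave 1 call (apol1). Against 500 µg/L the count at 4500 µg/L was 2 with 18 scans, 2 with median centring, 1 with array weights and 0 to 4 over the arrays left out. The median fold change at 1500 µg/L was 0.0176 with the Cy3 block and -0.18 to 0.0131 over the arrays left out. Without the arrays of low Cy3 background it was 0.11, with BPA_1500 replicate 2 alone at 1500 µg/L. Where the cause of a change is not given by fewer arrays or spots, the cause was not tested. Dim spots limit these values: Cy5 signals of c3b.2 and itih3a.1 were at medians of 1.37 and 1.56 times their background.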
